A study of Mus musculus with 12 samples.

Results

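Footpad skin of mouse embryos lacking beta-catenin in the skin was followed from embryonic day E15.5 to E16.5, over 4 of the study's 12 arrays. These were the 2 arrays labelled E15.5 knockout and the 2 labelled E16.5 knockout, chosen by genotype and stage alone. Every non-control probe was used, 42006 in all. All groups were of strain C57BL/6 and of the same tissue, total RNA from frozen footpad skin labelled with Cy3. Wild-type footpads of E15.5 and E16.5 (2 arrays each) and knockout footpads of E17.5 (2 arrays) are set beside them where a comparison needs them. Every array also held a common Cy5 reference, a pool of RNA from cultured mouse cell lines mixed with RNA from 129ES embryonic stem cells. The labels call the knockout skin-specific but give neither the Cre driver nor the allele, and do not tell separate animals from repeat samples. The p-values therefore rest on the spread between 2 samples a group, which could be purely technical.

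Beta-catenin carries the canonical Wnt signal: when the pathway is on, the protein escapes breakdown, enters the nucleus and works with TCF and LEF factors on target genes. In skin it is needed for the placodes from which hair follicles and other appendages form. The mouse footpad is where sweat glands develop, from ducts that bud from the epidermis in late gestation. In whole skin, fewer cells of a type and less RNA per cell cannot be told apart.

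The array files give each probe by a code and its sequence of 60 bases, and pair none with a gene. Probes are therefore described by code, with gene symbols only where a probe matched the start of a gene in RefSeq. The level of the targeted transcript, the gene lists and the footpad cell type markers were not analysed here, apart from 5 list genes with a probe at their start, and nothing here tests the genotype labels.

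Of the probes that both stages measured, these 4 rose and these 4 fell by some of the widest margins. The other 3 had steps that limma called different in knockout and wild type, though several other settings did not keep those calls. They are shown because they are described below, and each label gives the direction from E15.5 to E16.5. For Z00051506-1 the knockout ratio was lower at E16.5 than at E15.5, but it was above wild type at both stages. Capitals mark AATAAA, the usual polyadenylation signal, where a probe holds it.
Z00036200-1, higher: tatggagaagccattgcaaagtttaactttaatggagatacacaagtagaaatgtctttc
Z00059808-1, higher: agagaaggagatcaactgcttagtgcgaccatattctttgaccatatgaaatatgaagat
Z00037890-1, higher: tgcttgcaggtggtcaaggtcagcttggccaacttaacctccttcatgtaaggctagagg
Z00006588-1, higher: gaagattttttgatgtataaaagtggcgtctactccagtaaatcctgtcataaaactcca
Z00040042-1, lower: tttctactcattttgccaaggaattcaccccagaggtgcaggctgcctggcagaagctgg
Z00026452-1, lower: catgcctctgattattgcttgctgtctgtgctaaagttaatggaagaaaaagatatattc
Z00047077-1, lower: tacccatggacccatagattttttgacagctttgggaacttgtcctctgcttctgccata
Z00078099-1, lower: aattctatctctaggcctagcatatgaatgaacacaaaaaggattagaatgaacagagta
Z00037100-1, fell further in knockout: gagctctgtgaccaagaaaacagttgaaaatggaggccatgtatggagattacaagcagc
Z00059502-1, rose in knockout: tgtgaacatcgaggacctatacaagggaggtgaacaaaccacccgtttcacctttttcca
Z00051506-1, lower ratio in knockout: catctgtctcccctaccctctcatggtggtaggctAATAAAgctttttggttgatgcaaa

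Values are log2 ratios of footpad over reference, so 1 unit is a 2-fold change, and a step is the E16.5 mean minus the E15.5 mean. The 2 E16.5 knockout arrays correlated at 0.988 over the 29825 probes whose Cy3 signal was well above background on both arrays of at least 1 group, and the 2 E15.5 knockout arrays at 0.966. The SD of the difference between replicates was 0.28 at E16.5 and 0.51 at E15.5, the widest of the 6 groups. Between the stages, knockout arrays correlated at 0.857 to 0.889, below both replicate pairs. Cy3 was well above background at 70.8% to 72.4% of probes at E16.5 and at 59.1% to 59.2% at E15.5. The 3 stages lay on 3 different slides: in the footpad values, stage and slide cannot be told apart. With 2 arrays a group, precision is limited by their number.

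The Cy5 channel held the same reference RNA on every slide and shows how far a probe's Cy5 signal moved between slides with no change of RNA. It is a single channel, centred on each array's median, whereas the footpad value is a ratio of both channels. Changes between slides in the Cy3 channel alone are not seen in it. Among probes above background, the median size of the step was 0.11 in the reference, against 0.57 in the knockout footpad ratio. The spread of steps over probes was also narrower, with an SD of 0.34 against 0.90. limma called 9.14% of these probes in the reference at a Benjamini-Hochberg adjusted p under 0.05 (7.11% higher and 2.03% lower), and 53.5% in the knockout footpad. Over all probes tested it called 16.7% in the reference (5.28% higher and 11.5% lower). Of the 4816 probes called lower there, 606 were above background and 501 had Cy5 above background on all arrays. Most of the lower calls thus lay at dim probes, where a Cy5 value may not be a measured signal. Across the 28033 probes with Cy5 above background on all arrays, the reference step and the knockout step correlated at -0.04, as a description; both use the same arrays, and the ratio includes Cy5. Of these probes 8.42% were called in the reference (6.63% higher and 1.79% lower) and 54.3% in the knockout footpad (29.2% higher and 25.1% lower). Single probes did move in the reference by as much as their footpad value, and where a probe below did so its Cy5 step is given.

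**Figure D1:**
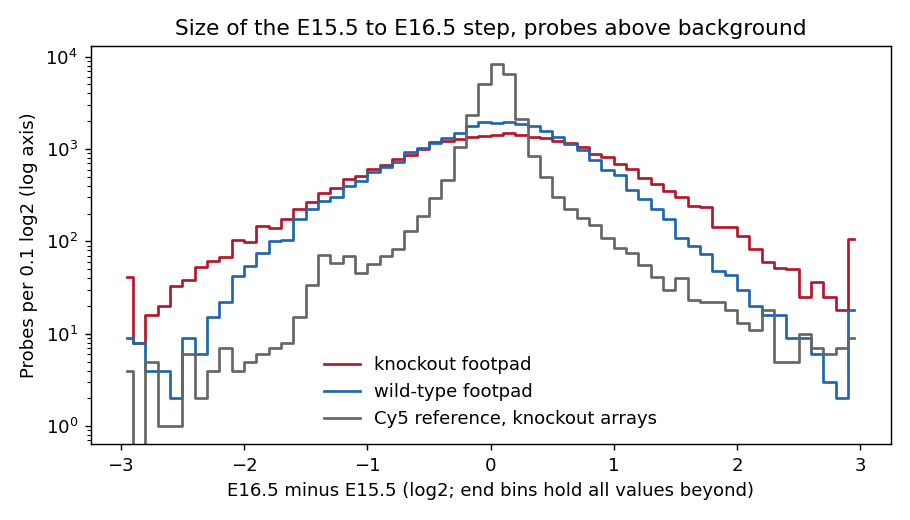
Number of probes (log axis, 0.1 log2 bins) by size of the step from E15.5 to E16.5 (log2), for the knockout footpad ratio, the wild-type footpad ratio and the Cy5 reference of the knockout arrays, over probes above background. The reference is narrow (median size 0.11), the wild type wider (0.43) and the knockout widest (0.57), and the end bins hold all values beyond them.

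The change from E15.5 to E16.5 in knockout footpad skin touched a large share of the array in both directions. limma called 9313 probes higher and 8365 lower at E16.5, which is 42.1% of the 42004 probes tested (22.2% higher and 19.9% lower). Among probes above background, 29.7% were higher and 23.8% lower, and 3762 rose and 3043 fell by at least 2-fold (12.6% and 10.2%). The balance of directions depended on scaling: normexp background correction with loess called 7654 higher and 9555 lower, and Cy3 alone 9932 higher and 13146 lower. A fit on these 4 arrays without the others called 8514.

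The rises and the falls were not measured equally well. Of the probes, 3992 were above background on both E16.5 arrays and on neither E15.5 array, and 1580 of these were called higher. The reverse held for 19 probes, of which 16 were called lower. For such probes the dim stage gives only a limit, so the fold is printed as "at least", against the lowest signal well above background after loess and Aquantile scaling of the channels, which is open to dye bias because dyes were not swapped. The limit reached 2-fold for 13 of the 3992 and for 1 of the 19, with a median of 1.02-fold for the probes above background at E16.5 alone. The wider detection at E16.5 moves with these rises, and its part in them was not tested.

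The sizes of change are therefore taken first from the 23149 probes with both channels above background on all 4 knockout arrays. Of these, 6805 were called higher (29.4%) and 6646 lower (28.7%), and 2123 rose and 2742 fell by at least 2-fold. The median step was 0.00. From them the 8 highest and 8 lowest called probes whose stages did not overlap were named; this choice was made after the values were seen. Their log2 steps were 2.44 to 2.77 and -4.10 to -3.35, or 1.12 to 2.30 and -4.37 to -2.15 with normexp and loess, which made each of the 8 rises smaller. The next probe in order lay at 2.43 on the high side and at -3.33 on the low side. limma also called the Cy5 reference step of 2 of the 8 highest and 6 of the 8 lowest (adjusted p under 0.05). Over all probes above background that share was 9.14%. Their Cy5 steps were -0.58 to 0.43 for the 8 highest and -1.58 to 1.05 for the 8 lowest. The part of these slide changes in the footpad steps was not tested.

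Z00040042-1 fell the furthest of them. Its log2 ratio was 6.00 and 6.90 on the E15.5 knockout arrays and 2.01 and 2.69 at E16.5, a step of -4.10 ± 0.46 (SE), or 17.1-fold (limma adjusted p = 0.000676). The transcript it reads was thus far above the reference at both stages, with every E16.5 array below every E15.5 array, as the choice of these probes required. Its Cy5 signal fell too, by 0.83, which works against the fall in the ratio; with normexp and loess the step was -4.22. In wild type it went from 4.68 and 5.81 to 2.14 and 2.32, and in knockout at E17.5 it was 0.04 and 0.17.

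Z00047077-1 was also far above the reference at both stages. It read 8.55 and 9.21 at E15.5 and 5.01 and 5.52 at E16.5, a step of -3.61 ± 0.31 (limma adjusted p = 0.000238). At E17.5 the knockout arrays read 3.49 and 3.25, lower again (step from E16.5 of -1.90, limma adjusted p = 0.0119). Z00040042-1 and Z00047077-1 were the only named probes of the 8 lowest whose later step was also called, and both continued downward. The Cy5 signal of Z00047077-1 fell by 1.58 between the slides, so its Cy3 signal fell by more than the ratio, by 5.23.

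Z00078099-1 was the most repeatable fall. It read 4.89 and 4.74 at E15.5 and 1.44 and 1.33 at E16.5, a step of -3.43 ± 0.08, or 10.8-fold (limma adjusted p = 2.69e-05). The wild-type arrays read 4.37 and 4.29 and then 1.60 and 1.51, so both genotypes ended near one level. Its reference signal rose by 0.59. Z00076227-1 took a like course, from 4.28 and 4.74 to 1.18 and 0.93 (step -3.46 ± 0.23, limma adjusted p = 9.79e-05), and so did Z00060830-1, from 4.89 and 5.43 to 2.27 and 1.35 (step -3.35 ± 0.34, limma adjusted p = 0.000454).

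The other named falls crossed the reference level, from above it at E15.5 to below it at E16.5. Z00026452-1 went from 2.24 and 3.21 to -0.81 and -1.31, a step of -3.79 ± 0.36 (limma adjusted p = 0.000353). Z00050643-1 went from 2.22 and 3.04 to -0.69 and -1.004 (step -3.48 ± 0.30, limma adjusted p = 0.000248). These probes share no stretch of 30 bases, and at E15.5 both were lower on replicate 1 than on replicate 2. Z00013800-1 went from 1.55 and 1.12 to -1.89 and -2.41 (step -3.48 ± 0.23, limma adjusted p = 0.000109), with a rise of 1.05 in its Cy5 signal and a step of -2.15 under normexp and loess.

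Among the rises, Z00036200-1 moved the most. Its log2 ratio was -1.67 and -2.24 at E15.5 and 0.62 and 1.01 at E16.5, a step of 2.77 ± 0.21, or 6.83-fold (limma adjusted p = 0.000159). It passed from below to above the reference level, and with normexp and loess the step was 1.42. Its Cy5 signal had a step of -0.58 (limma adjusted p = 0.195). The E17.5 knockout arrays read 0.48 and 0.57, so the later step was -0.29 and was not called. The later step was called for 13.1% of all probes tested (6.67% higher and 6.39% lower).

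Z00037890-1 was high at E16.5 alone. It read -1.06 and -0.97 at E15.5, 1.56 and 1.45 at E16.5, and -2.01 and -1.76 at E17.5. The rise was 2.52 ± 0.27 (limma adjusted p = 0.000548; 1.84 with normexp and loess) and the step that followed was -3.39 (limma adjusted p = 0.0014); both steps use the E16.5 arrays. Wild-type arrays also rose, from 0.12 and -0.12 to 1.68 and 2.13. Of the 8 highest probes it was the only one whose later step was called.

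Several named rises stayed below the reference at both stages. Z00059808-1 read -4.14 and -3.78 at E15.5 and -0.84 and -1.64 at E16.5 (step 2.72 ± 0.41, limma adjusted p = 0.00224; 1.82 with normexp and loess). Z00077459-1 read -3.66 and -3.23 and then -0.53 and -1.38 (step 2.49 ± 0.46, limma adjusted p = 0.00499; 1.89 with normexp and loess). Both were higher on E16.5 replicate 1 than on replicate 2, and the spread between those replicates, an SD of 0.57 and 0.60, was small beside the step.

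A pair of tighter examples followed the same course. Z00030283-1 went from -3.43 and -3.61 to -1.03 and -1.11 (step 2.45 ± 0.17, limma adjusted p = 0.000124; 1.64 with normexp and loess). Z00056794-1 went from -3.25 and -3.58 to -0.84 and -1.07 (step 2.46 ± 0.20, limma adjusted p = 0.000217), and to 1.12 under normexp and loess. The reference signal of these 4 probes moved by 0.01 to 0.09.

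Z00006588-1 and Z00051124-1 ended well above the reference. Z00006588-1 rose from 1.44 and 0.61 to 3.58 and 3.37 (step 2.44 ± 0.34, limma adjusted p = 0.00164), and it read 4.21 and 4.20 at E17.5. Z00051124-1 rose from -0.01 and -1.36 to 1.99 and 1.68 (step 2.52 ± 0.44, limma adjusted p = 0.00394; 1.61 with normexp and loess), with the E15.5 arrays further apart than those of any other probe among these 16. In a fit on the 4 knockout arrays alone, Z00051124-1 (limma adjusted p = 0.089) and Z00077459-1 (limma adjusted p = 0.0549) were no longer called.

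**Figure D2:**
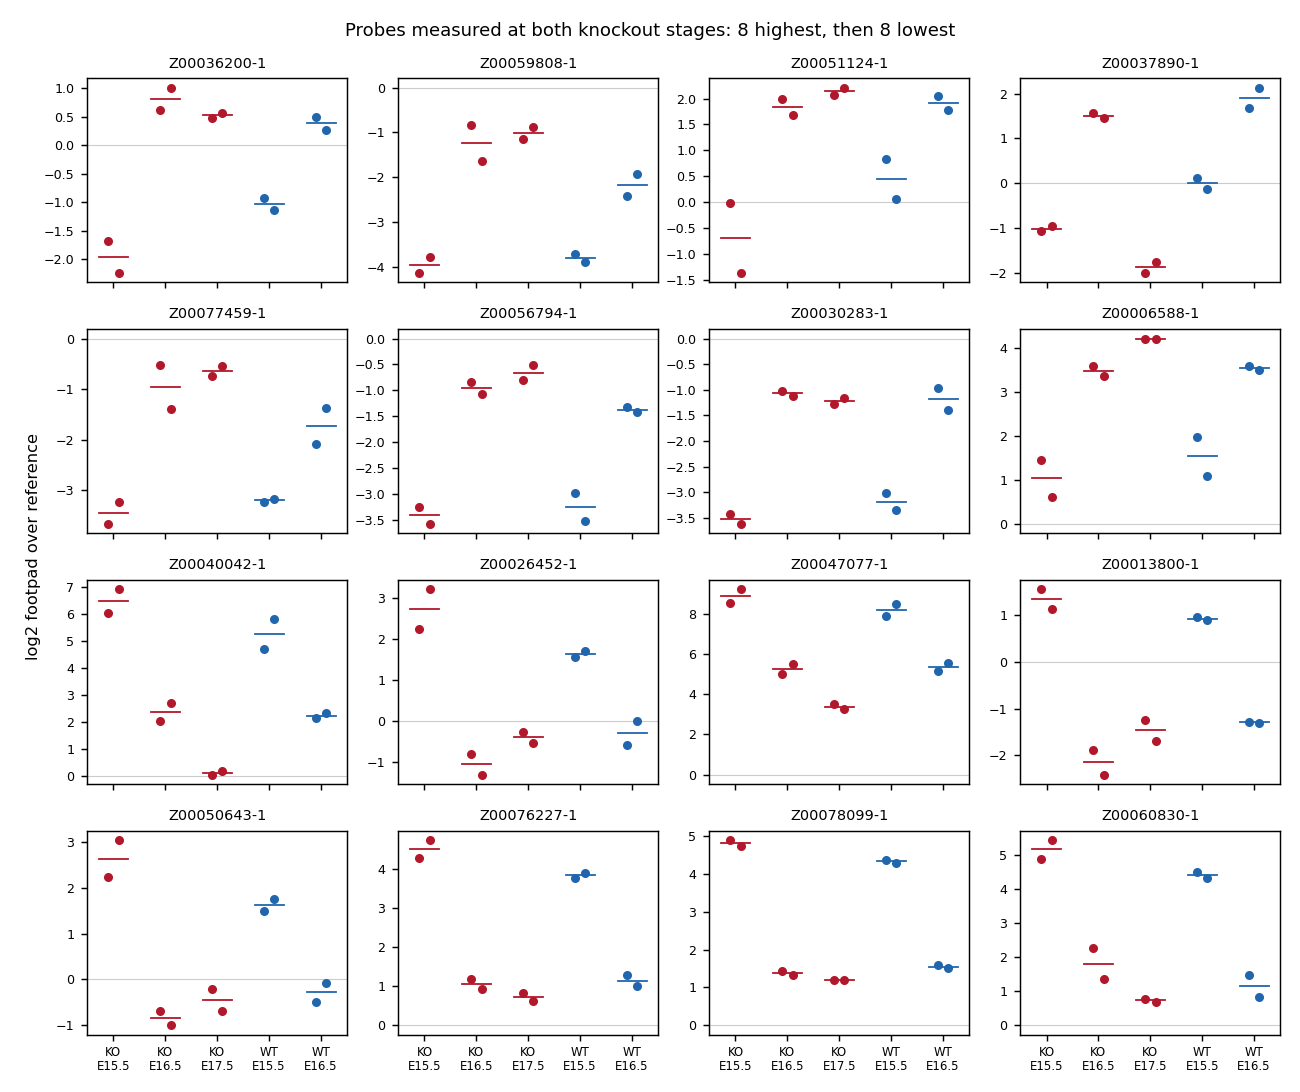
log2 ratio of footpad over reference on each array (points) and group mean (line) for the 8 highest and the 8 lowest probes with both channels above background on all 4 knockout arrays, in knockout (KO) at the 3 stages and in wild type (WT) at the first 2. In every panel the E15.5 and E16.5 knockout points are apart, which the choice of probes required, with steps of 2.44 to 2.77 and of -4.10 to -3.35. The wild-type means move the same way, with steps of 1.42 to 2.00 and of -3.27 to -1.91. The vertical axes differ between panels.

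The ratios of the whole table held larger rises, but those were limits. The 12 highest called probes rose by 3.91 to 5.05 in the log2 ratio, and none of them was well above background on either E15.5 knockout array. Z00048632-1 led them, with a ratio of 0.00 on both E15.5 arrays, where neither channel was measured, and 5.22 and 4.87 at E16.5 (limma adjusted p = 0.000565). Its level was at least 1.52-fold higher at E16.5, from the limit described above, and 7.48 and 8.43 were read at E17.5. For Z00076597-1, which holds AATAAA, the ratio went from 2.29 and 1.28 to 6.13 and 6.06 (limma adjusted p = 0.000316), and the level was at least 1.94-fold higher. The limits of the 12 ran from at least 1.07-fold to at least 1.94-fold, and their steps with normexp and loess were 0.27 to 1.14. Their Cy5 values had steps of -1.49 to -0.98, which widen the ratio. Where the E15.5 ratio was exactly 0, Cy5 was not measured at that stage, so such a step is no measured change of the reference.

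Of the 12 lowest called probes of the whole table, 9 were above background on all 4 knockout arrays and 3 were not well above background at E16.5. The latter were Z00077059-1 (at least 1.30-fold lower at E16.5), Z00037910-1 (at least 1.54-fold) and Z00071319-1 (at least 2.06-fold). Z00071319-1 read 2.16 and 2.16 at E15.5 and -1.01 and -1.74 at E16.5 (limma adjusted p = 0.000268). The other 2 of the 12 not yet described, Z00037571-1 and Z00028456-1, had steps of -3.64 and -3.61 in the ratio, which were -1.57 and -0.94 with normexp and loess. The just-missed probes beyond these 12 and 12 lay at 3.80 and -3.43.

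Wild-type footpads changed along the same lines over the same day. Across the 29824 probes above background and tested, knockout and wild-type steps correlated at 0.85 (Spearman's rho 0.84), as a description over probes; the steps share slides but no array. limma called 6522 probes higher and 6369 lower in wild type, 30.7% of those tested (15.2% lower). Above background it called 39.6% (21% higher and 18.6% lower), and 5.47% rose and 7.01% fell by at least 2-fold. Of the 15961 knockout calls above background, 96.6% had the same sign in wild type and 10230 were called there in the same direction, which is 64.1% of the knockout calls and 86.7% of the wild-type calls. Calls in opposite directions numbered 22. The knockout step was the larger for 82.4% of the knockout calls and for 63.2% of the wild-type calls; each list favours the genotype in which it was called.

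**Figure D3:**
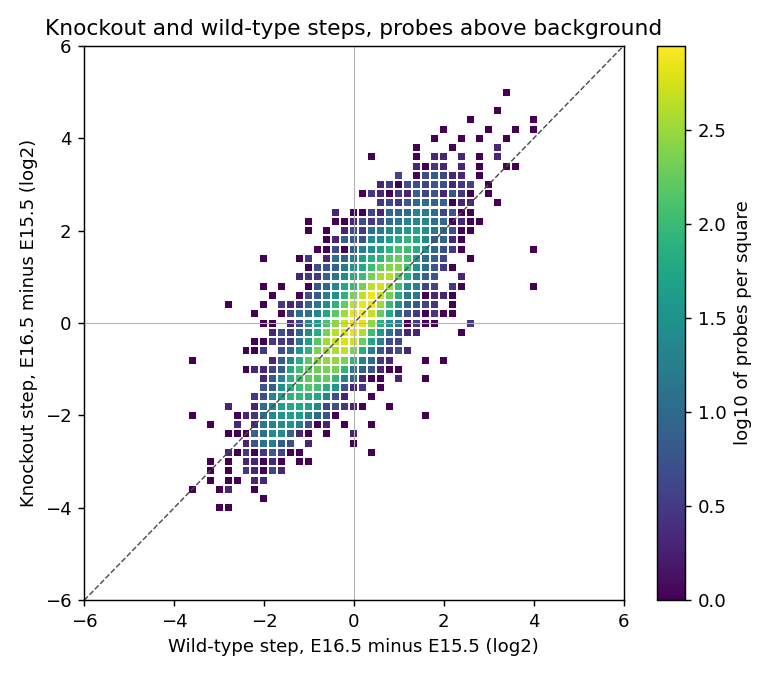
Knockout step against wild-type step (both E16.5 minus E15.5, log2), with the colour of each square giving the log10 number of probes, over probes above background; the dashed line marks equal steps. Most probes lie along the diagonal (Pearson's r 0.85), with the cloud steeper than the line, as the median sizes of 0.57 in knockout and 0.43 in wild type also show.

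Few probes were called for a step that differed between the genotypes in limma's test of the difference itself. That test called 47 probes, 0.112% of those tested, 25 with the higher step in knockout (0.0595%) and 22 with the lower (0.0524%). Over the 42004 tested, 5677 had an unadjusted p under 0.05 in limma. With 2 arrays a group, few calls do not show that few steps differed. Of the 47, 36 were not above background in any group, 35 had a group whose arrays read exactly 0, and 11 were above background (0.0369%: 0.0101% higher and 0.0268% lower). With dim probes left out of the fit limma called 0, with 4342 at an unadjusted p under 0.05 and a smallest adjusted p of 0.155, and with normexp and loess it called 0 as well. Leaving out 1 array moved the count from 13, without E15.5 wild type replicate 1, to 603, without E15.5 knockout replicate 1; it was 372 to 508 without any 1 E16.5 array. None of the 16 leading probes measured at both stages was called in this test, with adjusted p of 0.129 to 1 in limma. A test that called so few probes cannot show that their steps were equal. The knockout step minus the wild-type step was 0.44 to 1.36 for the 8 highest and -1.86 to -0.08 for the 8 lowest. These 16 were chosen by their knockout step, which favours a larger step in knockout.

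Of the 11 above background, the 9 named by rule are given here as values, since their calls did not outlast those settings. Z00037100-1 read 5.87 and 5.67 at E15.5 and 3.08 and 3.16 at E16.5 in knockout, against 5.64 and 5.33 and then 4.40 and 4.51 in wild type. The steps were -2.65 and -1.03, a difference of -1.62 ± 0.17 (limma adjusted p = 0.0377). By E17.5 the knockout arrays read 6.61 and 6.46 (later step 3.41, limma adjusted p = 7.95e-05). The knockout ratio was thus lower at E16.5 than at E15.5 or E17.5, though each stage lay on its own slide. Wild type at E17.5 is not set beside it. The Cy5 signal of Z00037100-1 moved by 0.08 from E15.5 to E16.5.

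Z00059502-1 rose in knockout, from 4.09 and 3.99 to 5.24 and 5.19, while wild type read 5.58 and 5.30 and then 4.90 and 5.12 (difference 1.61 ± 0.16, limma adjusted p = 0.0345). Knockout started below wild type and drew level with it. Another probe, Z00025525-1, shares at least 30 bases with it and had a knockout step of 1.01 that missed the threshold (limma adjusted p = 0.0552). Z00025321-1 fell in knockout, from 0.53 and 0.75 to -0.30 and -0.29, and read -0.10 and -0.11 and then 0.13 and 0.30 in wild type (difference -1.25 ± 0.13, limma adjusted p = 0.0346).

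Z00051506-1 read 5.07 and 5.07 and then 4.52 and 4.54 in knockout, against 3.34 and 3.43 and then 3.96 and 4.002 in wild type (difference -1.13 ± 0.12, limma adjusted p = 0.0383). Its Cy5 signal rose by 1.59 between the slides and its Cy3 (footpad) signal by 1.01 in knockout, so the ratio was lower at E16.5 while the footpad signal itself was higher. Z00023984-1 had the widest difference, 2.66 ± 0.29 (limma adjusted p = 0.048), but it was not well above background at E15.5 in knockout or at either wild-type stage, and its knockout rise was at least 1.07-fold. Z00070050-1 rose in both genotypes, by 1.77 in knockout and 0.85 in wild type (difference limma adjusted p = 0.0215). Z00052934-1, Z00030602-1 and Z00059603-1 fell in both, with steps of -2.06, -2.53 and -1.996 in knockout against -1.09, -1.61 and -1.08 in wild type (difference limma adjusted p = 0.048, 0.0499 and 0.0368).

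**Figure D4:**
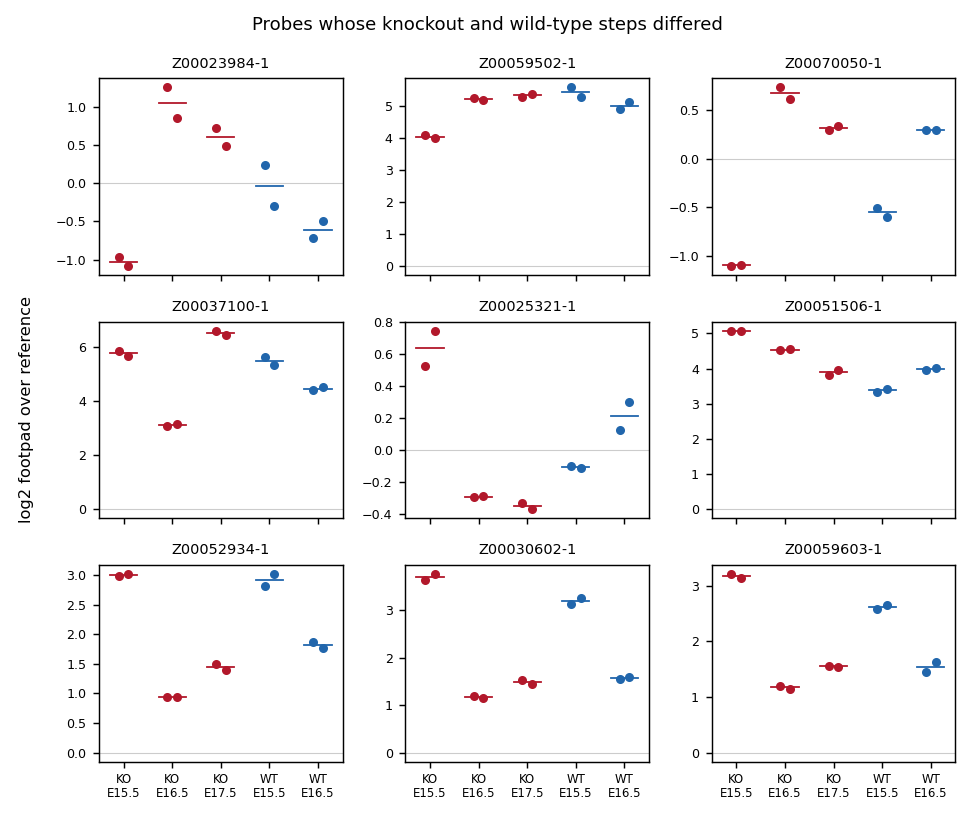
log2 ratio of footpad over reference on each array (points) and group mean (line) for the 9 probes named for a difference between the knockout (KO) and wild-type (WT) steps. In the panel of Z00037100-1 the E16.5 knockout points, 3.08 and 3.16, lie below those of every other group shown; the vertical axes differ between panels.

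Gene names could be given to a small set of probes. The RefSeq windows used (build GRCm38.p6) run from 250 bases before to 50 bases after each gene's start. In them 96 probes lay whole, on the gene's strand, at 1 protein-coding gene, and 96 others began in a window and ran out of its end, with 30 to 58 bases matched. That makes 192 probes at 190 genes, of which 128 were above background. Of these, 19 were called higher (14.8%) and 44 lower (34.4%), against 29.7% and 23.8% of all probes above background, with a median step of -0.23 against 0.10. A probe before a gene's annotated start may read an upstream start, a neighbour or the gene itself, and near-identical copies elsewhere in the genome were not searched.

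Of these, 4 carry the examples below and lie wholly or mostly before the start. Capitals mark the bases after the annotated start, and all run in the gene's direction.
Rpl38 (Z00032009-1), chr11:114668538-114668597, plus strand: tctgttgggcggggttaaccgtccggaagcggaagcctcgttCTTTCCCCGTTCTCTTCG
Psme2 (Z00064362-1), chr14:55590999-55591058, minus strand: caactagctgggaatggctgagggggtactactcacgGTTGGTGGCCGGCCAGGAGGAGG
Nedd8 (Z00064363-1), chr14:55671967-55672026, minus strand: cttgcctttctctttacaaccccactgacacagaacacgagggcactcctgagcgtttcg
Rab7 (Z00074934-1), chr6:88045112-88045171, minus strand: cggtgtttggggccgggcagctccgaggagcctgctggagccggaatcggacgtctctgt

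The 6 gene-start probes that fell furthest, among those with both channels above background on all 4 arrays, lay at Snrpf, Rpl38, Rps27l, Sec61b, H4c3 and Rps27rt. Snrpf, a protein of the Sm ring of spliceosomal RNPs, read 2.99 and 3.07 at E15.5 and 0.69 and 0.63 at E16.5 (Z00063560-1, 40 bases matched at chr10:93589609-93589648). Its step was -2.37 ± 0.12, or 5.17-fold (limma adjusted p = 5.23e-05). Sec61b, a subunit of the channel that takes proteins into the endoplasmic reticulum, read 2.94 and 2.84 and then 0.79 and 0.89 (Z00030447-1, chr4:47474670-47474710; step -2.05 ± 0.10, limma adjusted p = 5.11e-05). Both levels fell from well over the reference to near it. That the stages did not overlap was a condition for choosing these probes.

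H4c3, a gene for histone H4, fell from 2.59 and 3.36 to 0.91 and 0.98 (Z00032980-1, chr13:23698409-23698446; step -2.03 ± 0.26, limma adjusted p = 0.0012). Histone genes are near copies of each other, so the gene this probe reads is uncertain, and its call was lost in a fit on the 4 knockout arrays alone (limma adjusted p = 0.0553). Of 5 histone gene probes, all above background, 1 other was called: H2ac18 was higher at E16.5, from -0.81 and 0.18 to 0.56 and 0.60 (limma adjusted p = 0.0415), with 1 of 2 arrays above background at E15.5. H2bc11, H3f3a and H2ab2 had steps of -0.13, 0.21 and -0.14 that missed the threshold. The calls were thus 20% higher and 20% lower, against 29.7% and 23.8% of all probes above background, and 5 probes are too few to set against those shares.

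Ribosomal protein genes and their relatives went both ways. This group, formed after the values were seen, had 7 probes at 6 genes, of which 2 were higher and 4 lower (28.6% and 57.1%, against 29.7% and 23.8% of all probes above background). Of the 4 lower probes, 2 overlap at Rpl38. Rpl38, a protein of the large subunit, was read by 2 overlapping probes. Z00032009-1 went from 1.29 and 1.65 to -0.67 and -0.85 (step -2.22 ± 0.26, limma adjusted p = 0.00079). Z00075310-1 went from 0.41 and 0.74 to -1.43 on the 1 E16.5 array left after an outlier spot was removed (step -2.01 ± 0.31, limma adjusted p = 0.00371). The probes overlap, so the second is not independent of the first.

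Rps27l, a relative of the small-subunit protein gene Rps27, fell from 1.17 and 1.53 to -0.72 and -0.75 (Z00063927-1, chr9:66946093-66946135; step -2.08 ± 0.18, limma adjusted p = 0.000264). Rps27rt, named as a retrotransposed copy of Rps27, fell from 1.96 and 1.65 to 0.17 and 0.13 (Z00067797-1, chr9:114982690-114982744; step -1.66 ± 0.12, limma adjusted p = 0.00013). These relatives resemble each other and Rps27 in sequence, so what each probe reads is uncertain. Mrps21, of the mitochondrial ribosome, read 0.59 and 1.48 and then 0.34 and 0.31, and its step of -0.71 missed the threshold (limma adjusted p = 0.0767).

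The other 2 members of the group rose. Rpl10a, of the large subunit, went from -1.65 and -1.97 to -0.36 and -0.57 (Z00032074-1, chr17:28328570-28328614; step 1.34 ± 0.19, or 2.53-fold, limma adjusted p = 0.00157). Fau, which encodes a ubiquitin-like protein fused to the ribosomal protein S30, went from -1.94 and -1.62 to -0.44 and -0.67 (Z00032453-1, chr19:6057955-6057996; step 1.22 ± 0.15, limma adjusted p = 0.000879). Both were below the reference at both stages, whereas Rpl38 and Rps27l began above it. In wild type Rpl10a had a step of 0.50 (limma adjusted p = 0.0853) and Fau one of 1.19 (0.00164). The knockout step was larger by 0.84 and 0.03, and neither difference was called in limma (adjusted p = 0.269 and 1).

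The other 4 of the 6 highest gene-start probes lay at Gstp1, Nedd8, Rab7 and Psme2. Gstp1, a glutathione transferase, rose from -2.51 and -2.26 to -1.14 and -1.23 (Z00077387-1, chr19:4037863-4037911; step 1.20 ± 0.13, limma adjusted p = 0.000661). Nedd8, a ubiquitin-like protein attached to cullins, rose from -2.03 and -1.90 to -0.71 and -0.91 (step 1.15 ± 0.11, limma adjusted p = 0.000378). At E17.5 both were lower again, with later steps of -0.54 (limma adjusted p = 0.0429) and -0.59 (0.0193) from the E16.5 arrays they share with the first step.

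Rab7, a GTPase of late endosomes, rose from -1.71 and -1.83 to -0.63 and -0.81 (step 1.06 ± 0.10, limma adjusted p = 0.000384). Psme2, a subunit of a proteasome activator, rose from 0.24 and 0.18 to 1.25 and 1.099 (step 0.97 ± 0.26, limma adjusted p = 0.0225). The call for Psme2 was lost with any 1 of the 4 knockout arrays left out, with limma adjusted p from 0.0640 to 0.101, and with array weights (0.0572). With normexp and loess the steps of Nedd8, Rab7 and Psme2 were 0.41, 0.39 and 0.40, smaller than in the Agilent ratio, while those of Gstp1, Fau and Rpl10a were 0.93, 1.17 and 1.09.

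Probes at Tuba1b, an alpha-tubulin, and Taldo1, transaldolase of the pentose phosphate pathway, were not well above background at E15.5 in knockout. Their ratios went from -2.18 and -2.06 to -0.26 and -0.40 for Tuba1b (limma adjusted p = 0.00037) and from -3.16 and -2.61 to -1.11 and -1.40 for Taldo1 (0.00193). The levels were at least 1.28-fold and at least 1.16-fold higher at E16.5. Tuba1b lies at chr15:98934409-98934468, wholly before the annotated start.

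**Figure D5:**
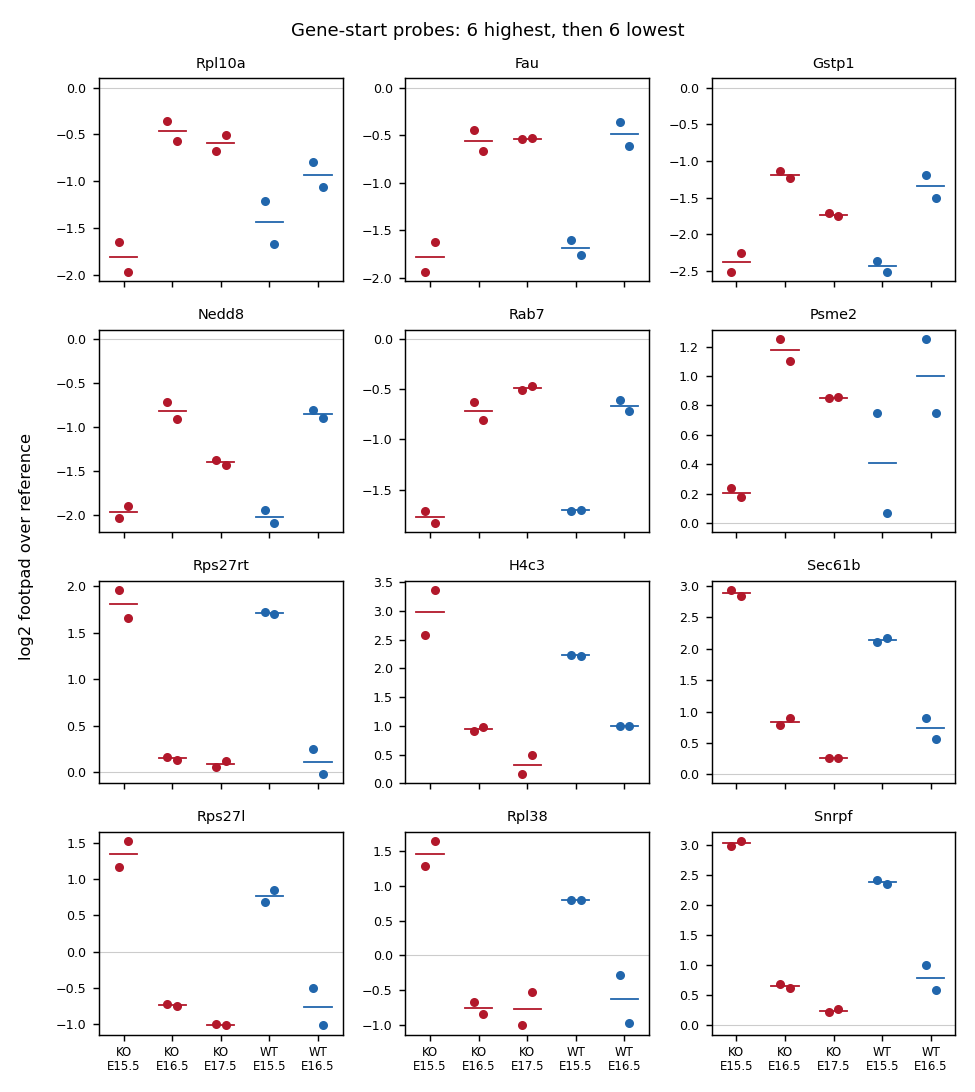
log2 ratio of footpad over reference on each array (points) and group mean (line) for the 6 highest and 6 lowest called gene-start probes with both channels above background on the 4 knockout arrays, in knockout (KO) at 3 stages and wild type (WT) at 2. The knockout rises run from 0.97 for Psme2 to 1.34 for Rpl10a and the falls from -1.66 for Rps27rt to -2.37 for Snrpf, and wild type moves the same way in each panel; the vertical axes differ between panels.

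Of the 661 genes on the lists chosen for this tissue, 5 had a gene-start probe, and 1 of them was called. The share called was 42.1% of all probes tested and 53.5% of those above background, and 5 genes are too few to set against it. Bmpr2, a receptor for bone morphogenetic proteins, read 1.097 and 1.72 at E15.5 and 0.54 and 0.14 at E16.5 (Z00065654-1, wholly before the start at chr1:59764193-59764252). Its step was -1.07 ± 0.22 (limma adjusted p = 0.00813), or -0.52 with normexp and loess, and in wild type it was -0.75 (limma adjusted p = 0.0419).

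The other list genes did not pass the test. Aqp5, the water channel of secretory gland cells, read -0.87 and 0.93 at E15.5 and 0.50 and 0.51 at E16.5, with the E16.5 arrays inside the E15.5 spread (limma adjusted p = 0.57); its probe also lies wholly before the start. Hmgb2, a chromatin protein of dividing cells, read 0.24 and 0.64 and then -0.18 and -0.19, and its step of -0.62 missed the threshold (limma adjusted p = 0.0572). Ltb, the cytokine lymphotoxin beta, had a step of -0.05 (limma adjusted p = 0.721), and Retn, the fat cell hormone resistin, was not above background in any group shown. Olfactory receptor genes, which are silent in most tissues, had 27 gene-start probes, of which 6 were above background in some group. Of these, 1 at Olfr787 was called lower, with a Cy5 signal that rose by 1.09, and none was called higher. That is 16.7% lower, against 23.8% of all probes above background, again over too few probes for a reading.

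Different probes that read the same stretch gave nearly the same step. Among probes above background, 736 pairs shared at least 30 bases in a row on the same strand, and their knockout steps correlated at 0.93, as a description. The median difference within a pair was 0.08, against a median step size of 0.57. Both probes were called in 350 pairs, and in 349 of these the directions were the same.

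Base composition and short motifs were set against the step as features that the grouping did not use. GC content correlated with the knockout step at -0.02 over 29824 probes, with the wild-type step at 0.08 and with the difference between them at -0.15. Probes with under 35% GC had a median step of 0.11 in knockout and -0.02 in wild type, whereas those of at least 60% had -0.04 and 0.09. In between, the knockout median did not move steadily with GC: it was 0.10 to 0.11 from 35% to 50% GC and 0.14 from 50% to 55%. AATAAA stood in 2911 probes (6.93% of those tested) and its reverse complement in 1413 (3.36%).

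Of the 2246 AATAAA probes above background, 578 were higher (25.7%) and 691 lower (30.8%), with a median step of -0.03. Over all probes above background 29.7% were higher and 23.8% lower, with a median of 0.10. ATTTA, the core of AU-rich elements that shorten the life of some transcripts, stood in 3044 probes (7.25%), or 3380 on the other strand. Above background 664 were higher (32.0%) and 521 lower (25.1%), with a median step of 0.12, close to the shares over all probes. The codons of the linker between zinc fingers of the common type were found in 21 probes and on the other strand in 1. Of the 12 above background, 3 were higher and 1 lower, with medians of 0.18 in knockout and -0.33 in wild type; so few probes allow no reading against the 29.7% and 23.8% of all. Runs of regularly spaced glycine codons, as in collagens, were found in 9 probes; of 7 above background 3 were higher and 2 lower, again too few to set against those shares. A motif in a probe is a description of its letters.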

How the data were processed

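RNA of 12 footpad samples, 2 per genotype and stage, was read on 12 two-colour Agilent arrays of 60-base probes, 4 arrays to a slide. Per the file headers, Agilent Feature Extraction 9.5.1.1 gave the deposited spot intensity values and a background-corrected, dye-normalized log10 ratio, Cy5 over Cy3. The deposited series table holds 25030 spots as log10 values; their differences correlated at 0.973 to 0.991 with those of the ratios, which gives the direction, and column medians were 2.556 to 2.588, with the centring not given in the sources used here.

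The log10 ratio was turned to log2 of footpad over reference, outlier spots were left out, and spots of a probe were averaged. limma 3.58.1 (R 4.3.3) was fitted to all 42006 probes and all 6 groups with Benjamini-Hochberg adjustment (6 residual and 0.82 prior degrees of freedom); the steps and their difference are its contrasts. A spot with neither channel measured has a ratio of exactly 0, 8.97% to 17.5% of probes per array, which lowers the prior. The rule for named probes took the 12 highest and 12 lowest called knockout steps, and up to 6 each way for the difference, with groups apart and Cy3 above background at the brighter stage. Gene-start matches, the probes measured at both stages and the motifs were chosen after the values were seen. The members and lists were chosen with earlier results of these data known. The design planned gene symbols; probes were used in their place, and a mean over probes of a gene was not run. The fitting script was tested on simulated data. Alternatives were normexp (offset 50) with loess, Cy3 alone, the authors' values, no dim probes, array weights, the replicate block, fewer arrays and each array left out.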

Additional observations from a re-analysis of the deposited data

Results flagged for a closer look

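Steps from E15.5 to E16.5 were called different between knockout and wild type for these 9 named probes in limma's test of the difference. That test called 0.112% of all probes tested. The step in knockout minus the step in wild type was 2.66 for Z00023984-1, 1.61 for Z00059502-1 and 0.93 for Z00070050-1. Z00023984-1 was not well above background at E15.5 in knockout or at either wild-type stage, so its value is a ratio difference without a measured level on those arrays, and its knockout rise is known only as at least 1.07-fold. The difference between the steps was -1.62 for Z00037100-1, -1.25 for Z00025321-1 and -1.13 for Z00051506-1. It was -0.96 for Z00052934-1, -0.92 for Z00030602-1 and -0.92 for Z00059603-1.

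Their directions were the same under every alternative that gave a value, and none was called with normexp and loess, with Cy3 alone, with dim probes left out, with array weights, with the replicate block, without E15.5 wild type replicate 1 or with only the arrays compared. With normexp and loess the 3 positive differences were 0.30 to 0.46 and the 6 negative ones -1.34 to -0.23. The Cy5 reference step of the knockout arrays was 1.59 for Z00051506-1, 1.05 for Z00059603-1 and 0.71 for Z00059502-1, and its part in their differences was not tested.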

How the results depend on the processing

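The knockout step called 17678 probes, and from 13266 to 17666 with 1 array left out. It called 10828 with the authors' processed values, which list fewer spots, and 8514 with only the 4 arrays compared, which leaves fewer residual degrees of freedom; the other settings gave 14765 to 23078. The wild-type step called 12891, with 8417 for the authors' values, 4292 for the arrays compared and 7673 (without E15.5 replicate 2; 8494 without E16.5 replicate 1) to 10936 with an array left out. The step difference called 47, with 0 for normexp and loess (also with dim probes left out), 3 for Cy3 alone, 24 for the authors' values, 0 with dim probes left out, 14 with array weights and 0 for the arrays compared. Leaving out an array gave 13 (without E15.5 wild type replicate 1) to 603 (without E15.5 knockout replicate 1) calls of the step difference; the cause was not tested. The reference step called 7033, with 1236 after normexp and quantile scaling, 2279 with dim probes left out and 4661 (without E15.5 knockout replicate 2) to 6472 with an array left out. Median centring changed nothing, since the median ratio of every array was already 0.

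Same-numbered E15.5 and E16.5 knockout samples deviated from their group means with a correlation of -0.02 across probes, so across stages they share only a number. Same-numbered knockout and wild-type samples of one stage correlated at 0.35 at E15.5 and 0.13 at E16.5. All arrays of a stage share a slide, so the slide does not set the replicate numbers apart. The main fit had no term for the replicate number and treated these samples as independent. The replicate block is a single term common to all stages, so it does not represent a correlation held within one stage. With the replicate block 17981 probes were called for the knockout step, 13444 for wild type, 6654 for the reference and 8 for the step difference.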
